A study of Saccharomyces cerevisiae with 10 samples.

Results

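The 10 genes described here encode enzymes that remove reactive oxygen species in *Saccharomyces cerevisiae* (budding yeast): the superoxide dismutases SOD1 (YJR104C) and SOD2 (YHR008C), the catalases CTT1 (YGR088W) and CTA1 (YDR256C), the cytochrome c peroxidase CCP1 (YKR066C), the peroxiredoxins TSA1 (YML028W) and AHP1 (YLR109W), the thioredoxin TRX2 (YGR209C), and the glutaredoxins GRX1 (YCL035C) and GRX2 (YDR513W). They were chosen by systematic name, for their function, and with earlier results of these data known. Their counts beside the shares of all genes are therefore descriptions and not tests. All 10 were found among the 5822 genes of the table, each with a value on all 10 arrays. The arrays were 2-colour arrays of total RNA against a reference. On 5 of them the RNA came from a strain labelled as a PPT1 deletion (delPPT1), PPT1 encoding a serine/threonine phosphatase, and on the other 5 from the wild type. Each strain was sampled before a shift to lower osmolarity, taken as 0 min, and at 4 later times. These were 7, 15, 30 and 60 min for delPPT1 and 7, 16, 30 and 60 min for the wild type. Each strain and time had 1 column of values, counted here as 1 array. In the genes looked up, wild type 0 min values often carried a further decimal (1.0415 for CTT1) that no other column had. Whether that column averages more than 1 array is not given, and it was fitted as 1. The sources used here give neither the strain background, the medium and the size of the shift nor whether a strain was 1 clone. No culture was followed without the shift, so time after the shift and time alone cannot be told apart.

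In yeast, superoxide dismutases turn superoxide into hydrogen peroxide, Sod1 mainly in the cytosol and Sod2 in the mitochondrial matrix. Hydrogen peroxide is then broken down by catalases, by cytochrome c peroxidase in mitochondria, and by peroxiredoxins, which are returned to their active form by thioredoxin, while glutaredoxins reduce disulfides with electrons from glutathione. Many of these genes respond to oxidants through the transcription factors Yap1 and Skn7, and CTT1 is also a target of the general stress factors Msn2 and Msn4 and of the HOG (high osmolarity glycerol) pathway.

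Each value is a log2 ratio after the median of its array was set to 0, and its direction is likely sample over reference. With the ratio turned, every direction below would turn with it. A ratio gives a gene's RNA relative to the reference and not its abundance, and it does not tell fewer expressing cells from less RNA per cell. The arrays held 5440 to 5807 genes with a value, and every pair of arrays correlated across genes with r of at least 0.366. PPT1 itself did not differ between the arrays labelled delPPT1 and the wild type arrays beyond the error (0.19 ± 0.13, SE, 5 pairs of arrays matched by time; limma adjusted p = 0.417), so the deleted gene did not bear out the label. By time, delPPT1 minus wild type was 0.60, 0.61, 0.00, -0.16 and -0.11 at 0, 7, 15-16, 30 and 60 min. PPT1 thus stood higher under the deletion label at 0 and 7 min. Where its probe lies in the gene is not given, and directions between strains rest on the labels alone. The labels do not tie the times of a strain to 1 culture or to several. The p-values therefore cover the spread from array to array and no more, and that spread may be technical. Precision is limited by there being 10 arrays.

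Before the shift, 9 of the 10 genes stood above the array median in each strain. Their median log2 ratio at 0 min was 0.77 on the array labelled delPPT1 and 0.92 in the wild type, and the median gene of the 10 lay at percentile 92.9 of all genes on the array labelled delPPT1 and at percentile 94.0 in the wild type. CTT1 was highest on the 0 min array labelled delPPT1, at 1.83 and percentile 99.1, and AHP1 was highest on the wild type 0 min array, at 1.49. CTA1 was the only one of the 10 below the median there, at -0.33 on the array labelled delPPT1 and -0.29 in the wild type. At the later times the median of the 10 genes lay between 0.15 and 0.39 on the arrays labelled delPPT1 and between 0.18 and 0.35 in the wild type, lower than at 0 min on all 8 later arrays. On these later arrays 7 to 10 of the 10 genes still stood above the array median. The median gene of the 10 lay between percentiles 69.7 and 89.0 there. The spread of all genes was also wider at 0 min, with a median absolute deviation of 0.251 on the array labelled delPPT1 and 0.276 in the wild type, against 0.189 to 0.214 at the later times on arrays labelled delPPT1 and 0.214 to 0.246 in the wild type. For CTT1, SOD1, SOD2 and GRX1 both 0 min values were above all 8 later ones, that is for 4 of the 10 genes against 10.6% of the genes measured on every array, and for CTA1 both were below, against 7.22%. The part of this wider spread in the falls below was not tested beyond the rescaled values given with them.

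**Figure D1:**
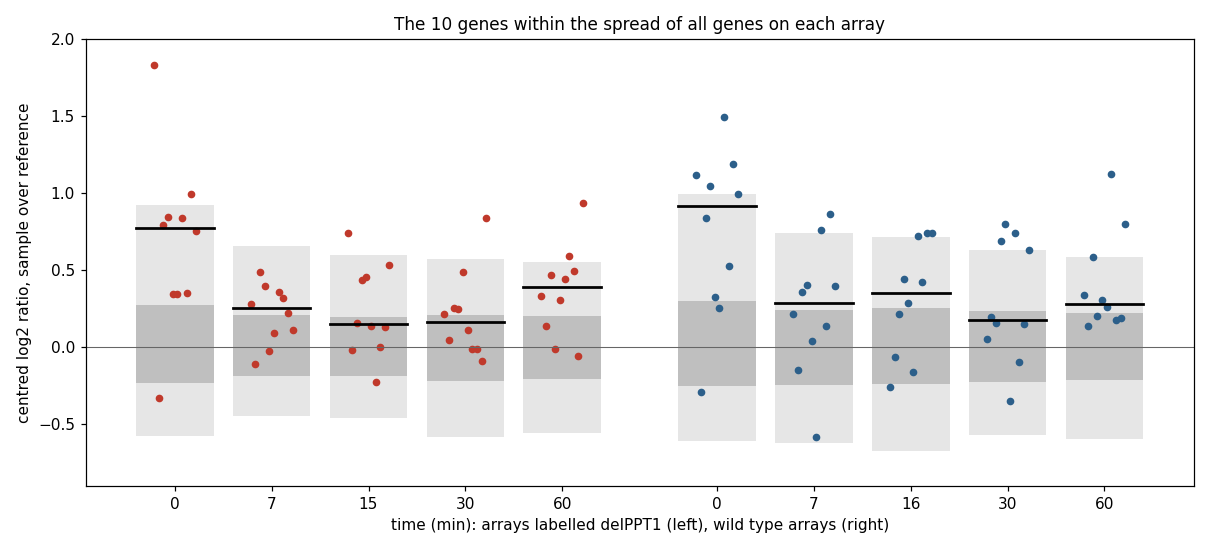
Centred log2 ratio (y axis) of the 10 genes on each array, by strain and time in minutes (x axis). Points are single genes, black lines their median, dark grey boxes the interquartile range of all genes and light grey boxes their 5th to 95th percentile. The medians of 0.77 and 0.92 at 0 min lie above those of all 8 later arrays.

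Over time, 5 of the 10 genes passed the moderated F test for any difference between 0 min and the 4 later times (limma, Benjamini-Hochberg adjusted p under 0.05), namely CTT1, SOD1, SOD2, AHP1 and GRX1, against 8.98% of all genes. At 7 min 1 of 10 fell relative to 0 min and 0 rose, against 2.58% of all genes lower and 0.447% higher. At 15-16 min 4 fell and 0 rose (all genes 5.62% lower and 1.56% higher), at 30 min 4 fell and 1 rose (7.8% lower and 3.56% higher), and at 60 min 3 fell and 1 rose (8.38% lower and 3.97% higher). The gene that rose was CTA1 at both times. The median change of the 10 genes was -0.54, -0.41, -0.49 and -0.20 at 7, 15-16, 30 and 60 min, where the median of all genes lay between -0.02 and 0.00. These time comparisons treat the 2 strains as the 2 samples of a time, and they share the 0 min arrays. Without the 0 min array labelled delPPT1, 0 of the 10 passed the F test, and without the wild type 0 min array 1 did, GRX1. With quantile normalization, which gives all arrays the same spread, 1 passed, again GRX1, and with median and MAD (median absolute deviation) scaling 2, AHP1 and GRX1. Over all genes the F test called 522, against 379 with quantile normalization and 418 with median and MAD scaling. Its calls over all genes also fell without either 0 min array, and further than with these rescalings.

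**Figure D2:**
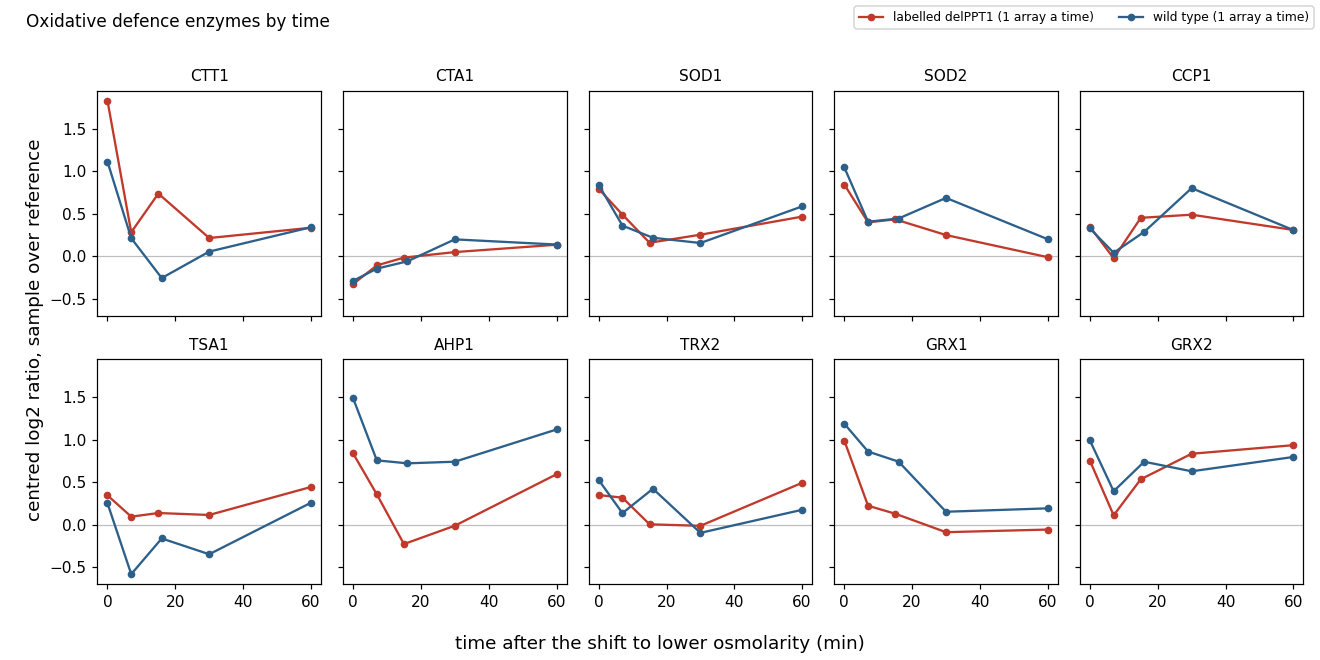
Centred log2 ratio (y axis) of each gene against time after the shift in minutes (x axis), on arrays labelled delPPT1 (red) and wild type arrays (blue). Each point is 1 array. For CTT1, SOD1, SOD2 and GRX1 both 0 min values lie above every later value, and for CTA1 both lie below.

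SOD1, the copper and zinc superoxide dismutase, fell after the shift and stood closer to its 0 min level at 60 min. Its log2 ratio was 0.79, 0.49, 0.16, 0.25 and 0.47 at 0, 7, 15, 30 and 60 min on the arrays labelled delPPT1, against 0.84, 0.36, 0.22, 0.16 and 0.59 at 0, 7, 16, 30 and 60 min in the wild type. Both 0 min values were above all 8 later ones, and the strains lay within 0.13 of each other at every time. SOD1 fell by 0.63 ± 0.13 at 15-16 min (SE; 1.55-fold, adjusted p = 0.0152) and by 0.61 ± 0.13 at 30 min (adjusted p = 0.0129), while at 60 min it was at -0.29 ± 0.13 (adjusted p = 0.168). Each of these falls lost its call without either 0 min array or either array of the time itself (adjusted p from 0.0526 to 0.114), and both were lost with quantile normalization, at -0.41 and -0.38 (adjusted p = 0.139 and 0.119). The F test for SOD1 (adjusted p = 0.0403) was lost without any 1 of the 10 arrays (adjusted p from 0.0642 to 0.193).

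SOD2, the manganese superoxide dismutase of mitochondria, was lowest at 60 min. On the arrays labelled delPPT1 it read 0.84, 0.40, 0.43, 0.25 and -0.01 from 0 to 60 min, against 1.05, 0.41, 0.44, 0.69 and 0.20 in the wild type. The 0 min values of both strains were above all later ones, and the lowest value of each strain was that of 60 min. The changes of -0.54, -0.51 and -0.48 (SE 0.14 each) at 7, 15-16 and 30 min did not pass (adjusted p from 0.0574 to 0.0802), and SOD2 fell by 0.85 ± 0.14 at 60 min (1.81-fold, adjusted p = 0.00391). The fall at 60 min held without each of the 10 arrays in turn and missed the threshold with quantile normalization (-0.59, adjusted p = 0.0517). The F test for SOD2 (adjusted p = 0.032) was lost without either array of 0, 7 or 60 min, with adjusted p from 0.0505 to 0.178.

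CTT1, the cytosolic catalase, had the widest range of the 10 genes, 2.09 on the log2 scale over the 10 arrays, wider than that of 98.6% of the 4901 genes measured on every array. It was at 1.83, 0.28, 0.74, 0.21 and 0.34 from 0 to 60 min on the arrays labelled delPPT1, against 1.12, 0.21, -0.26, 0.05 and 0.34 in the wild type. Both 0 min values stood above all later ones, and the strains were furthest apart at 15-16 min, by 0.996, and level at 60 min. CTT1 fell at all 4 later times, with changes of -1.23, -1.23, -1.34 and -1.14 (SE 0.23 each) at 7, 15-16, 30 and 60 min and adjusted p of 0.0211, 0.0116, 0.00509 and 0.0119. The fall was 2.34-fold at 7 min and 2.53-fold at 30 min, and CTT1 was the only one of the 10 genes to pass at 7 min. The fall at 7 min lost its call without either 0 min or either 7 min array (adjusted p from 0.0606 to 0.173). Without the 0 min array labelled delPPT1, CTT1 passed at no time, with changes of -1.02, -1.03, -1.13 and -0.93 and adjusted p from 0.0686 to 0.173. The F test for CTT1 missed the threshold with quantile normalization (adjusted p = 0.137), with median and MAD scaling (adjusted p = 0.0691) and without the strain term (adjusted p = 0.0836). With quantile normalization the changes of CTT1 were -0.78, -0.73, -0.89 and -0.64, and the one at 30 min passed (adjusted p = 0.0421). With median and MAD scaling they were -1.02, -0.96, -1.14 and -0.92, and those at 30 and 60 min passed (adjusted p = 0.0206 and 0.0490). The call was also lost without the wild type 16 min array at 15-16 min (adjusted p = 0.0971) and without the array labelled delPPT1 of the time itself at 30 min (adjusted p = 0.0621) and 60 min (adjusted p = 0.119), and the F test (adjusted p = 0.019) was also lost without the wild type 0 min array (adjusted p = 0.0909).

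CTA1, the catalase of peroxisomes and mitochondria, went the other way. Its log2 ratio at 0, 7, 15, 30 and 60 min was -0.33, -0.11, -0.02, 0.05 and 0.14 on the arrays labelled delPPT1, against -0.29, -0.15, -0.06, 0.20 and 0.14 at 0, 7, 16, 30 and 60 min in the wild type. Both 0 min values were below all 8 later ones. CTA1 rose by 0.43 ± 0.12 at 30 min (1.35-fold, adjusted p = 0.0477) and 0.45 ± 0.12 at 60 min (1.36-fold, adjusted p = 0.0416), close to the threshold, and did not pass the F test (adjusted p = 0.13). Without any 1 of the arrays of 0, 7, 30 or 60 min, neither rise passed (adjusted p from 0.0509 to 0.225), and neither passed with quantile normalization or with median and MAD scaling. Over the 10 arrays CTA1 ran against GRX1 (Pearson r = -0.85), CTT1 (r = -0.68), SOD2 (r = -0.67) and SOD1 (r = -0.63).

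CCP1, which reduces hydrogen peroxide with electrons from cytochrome c, did not pass at any time. It read 0.35, -0.02, 0.45, 0.49 and 0.31 on the arrays labelled delPPT1 from 0 to 60 min, against 0.33, 0.04, 0.29, 0.80 and 0.31 in the wild type. Both strains had their lowest value at 7 min and their highest at 30 min, with changes from 0 min of -0.33 ± 0.14 (adjusted p = 0.286) and 0.31 ± 0.14 (adjusted p = 0.188). At 60 min the fitted change was -0.03 ± 0.14 (adjusted p = 0.921).

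**Figure D3:**
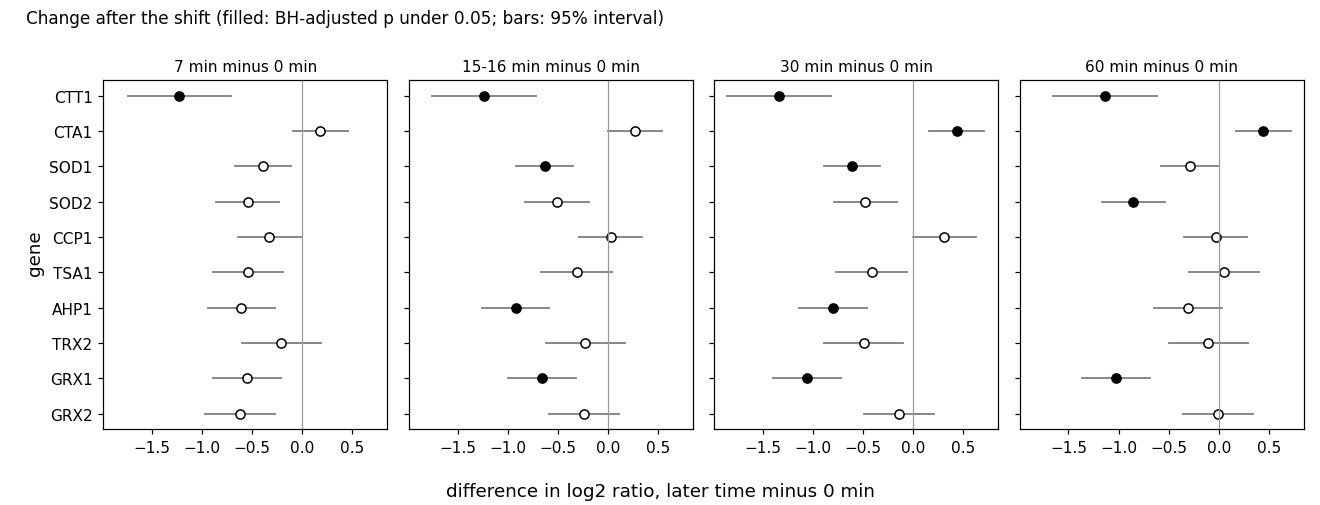
Fitted difference in log2 ratio, later time minus 0 min (x axis), for each gene (y axis) at 7, 15-16, 30 and 60 min, over both strains. Circles are estimates, bars 95% intervals, and filled circles passed at an adjusted p under 0.05. CTT1 lies lowest at each time, GRX1 passes from 15-16 min on, and CTA1 lies above 0 throughout.

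AHP1, a peroxiredoxin that prefers organic peroxides, ran at a lower ratio in one strain than in the other throughout. Its log2 ratio was 0.84, 0.36, -0.23, -0.01 and 0.59 at 0, 7, 15, 30 and 60 min on the arrays labelled delPPT1, against 1.49, 0.76, 0.72, 0.74 and 1.12 at 0, 7, 16, 30 and 60 min in the wild type. In each strain 0 min was the highest value and 15-16 min the lowest. AHP1 fell by 0.92 ± 0.15 at 15-16 min (1.89-fold, adjusted p = 0.00552) and by 0.80 ± 0.15 at 30 min (adjusted p = 0.0079), and at 60 min it was at -0.31 ± 0.15 (adjusted p = 0.222). Without either 0 min array these falls were of like size, from -0.80 to -0.92, and missed the threshold (adjusted p from 0.0524 to 0.0651), as did the F test for AHP1 (adjusted p = 0.0161, and 0.0986 and 0.0946 without either 0 min array). The fall at 30 min also missed it without the 30 min array labelled delPPT1 (adjusted p = 0.0751), and both falls did with quantile normalization (-0.60 and -0.40, adjusted p = 0.103 and 0.202).

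TSA1, the main cytosolic peroxiredoxin, passed at no time. It was at 0.34, 0.09, 0.14, 0.11 and 0.44 from 0 to 60 min on the arrays labelled delPPT1, against 0.25, -0.58, -0.16, -0.35 and 0.26 in the wild type. The lowest value of each strain was that of 7 min, and at 60 min both strains were at or above their 0 min value. The fitted change was -0.54 ± 0.16 at 7 min (adjusted p = 0.114) and 0.05 ± 0.16 at 60 min (adjusted p = 0.867). TRX2, a cytosolic thioredoxin that reduces peroxiredoxins, read 0.35, 0.32, 0.00, -0.01 and 0.49 on the arrays labelled delPPT1, against 0.53, 0.14, 0.42, -0.10 and 0.17 in the wild type. Both strains had their lowest TRX2 value at 30 min, where the change was -0.49 ± 0.18 (adjusted p = 0.104).

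GRX1 and GRX2 encode closely related glutaredoxins and followed different courses. GRX1 was at 0.99, 0.22, 0.13, -0.09 and -0.06 from 0 to 60 min on the arrays labelled delPPT1, against 1.19, 0.86, 0.74, 0.15 and 0.19 in the wild type. Both 0 min values were above all later ones, and in each strain the values at 30 and 60 min were the lowest. GRX1 fell by 0.65 ± 0.15 at 15-16 min (adjusted p = 0.0307), 1.06 ± 0.15 at 30 min (2.08-fold, adjusted p = 0.00198) and 1.02 ± 0.15 at 60 min (2.03-fold, adjusted p = 0.00219). The falls at 30 and 60 min passed in all 16 alternatives, leaving out each array among them, with values from -0.71 to -1.18 and adjusted p from 0.000980 to 0.0349. That at 15-16 min lost its call without either array of 0 min or of 15-16 min (adjusted p from 0.0609 to 0.206) and with quantile normalization (-0.34, adjusted p = 0.271). The F test (adjusted p = 0.008) was lost without the 0 min array labelled delPPT1 (adjusted p = 0.0821). GRX2, which makes both a cytosolic and a mitochondrial form, read 0.75, 0.11, 0.54, 0.84 and 0.94 on the arrays labelled delPPT1, against 0.99, 0.39, 0.74, 0.63 and 0.80 in the wild type. Its value was lowest at 7 min in each strain, with a change of -0.62 ± 0.16 that missed the threshold (adjusted p = 0.0716), and at 60 min its change was -0.01 ± 0.16 (adjusted p = 0.987). Close paralogues can share signal on an array, so the values of GRX1 against GRX2, TSA1 against TSA2 and TRX2 against TRX1 are uncertain one against the other.

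Between consecutive times after the shift, 0 of the 10 genes passed in limma's test, against 0.464% of all genes from 7 to 15-16 min, 0.0516% from 15-16 to 30 min and 0.0516% from 30 to 60 min. At an unadjusted p under 0.05 the counts were 2, 1 and 5 of 10, against 7.03%, 8.58% and 9.85% of all genes. The 5 genes of the last step were AHP1 (0.49 ± 0.15), TSA1 (0.47 ± 0.16), SOD1 (0.32 ± 0.13), SOD2 (-0.37 ± 0.14) and CCP1 (-0.34 ± 0.14), each as 60 min minus 30 min, with adjusted p from 0.35 to 0.475.

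Comparing the strains over all times, AHP1 was lower on the arrays labelled delPPT1 and the other 9 genes did not pass, so that 1 of 10 was lower and 0 higher, against 2.06% of all genes lower and 1.73% higher. The AHP1 difference, delPPT1 minus wild type, was -0.65, -0.40, -0.95, -0.76 and -0.53 at 0, 7, 15-16, 30 and 60 min. It was lower in 5 of 5 matched pairs, with a fitted difference of -0.66 ± 0.10 (SE; 1.58-fold, adjusted p = 0.00955). This call held without each of the 10 arrays in turn and under every scaling tried, with values from -0.58 to -0.72. Leaving out either array of a pair gives the same strain fit, so these 10 omissions amount to 5 checks. The call was lost only when time was left out of the fit (adjusted p = 0.212). The difference of -0.65 before the shift came from 1 pair of arrays and was not tested by itself. The interaction, the difference after the shift minus that at 0 min, was -0.01 for AHP1 (95% interval -0.58 to 0.56).

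GRX1 was also at a lower ratio on the arrays labelled delPPT1 in 5 of 5 pairs, at -0.39 ± 0.10, and just missed the threshold (adjusted p = 0.0541). It passed when only genes with a value on all arrays were tested (adjusted p = 0.0372) and with a variance prior that follows the mean ratio. TSA1 was at a higher ratio on the arrays labelled delPPT1 in 5 of 5 pairs (0.34 ± 0.10, adjusted p = 0.0762), with its largest difference, 0.68, at 7 min. SOD2 was lower in 5 of 5 pairs but by only 0.01 in 2 of them, and its fitted difference of -0.17 ± 0.09 did not pass (adjusted p = 0.277). For CTT1 the difference was 0.39 ± 0.15 (adjusted p = 0.149), higher in 4 of 5 pairs. At an unadjusted p under 0.05, 4 of the 10 genes passed limma's strain comparison, against 23.2% of all genes. The share of all genes with 5 of 5 pairs in 1 direction was not counted. The fitted difference of SOD1 was 0.00 with a 95% interval from -0.18 to 0.18, and those of CTA1 (-0.02), CCP1 (-0.04), TRX2 (0.00) and GRX2 (-0.08) had intervals that lay between -0.30 and 0.25.

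**Figure D4:**
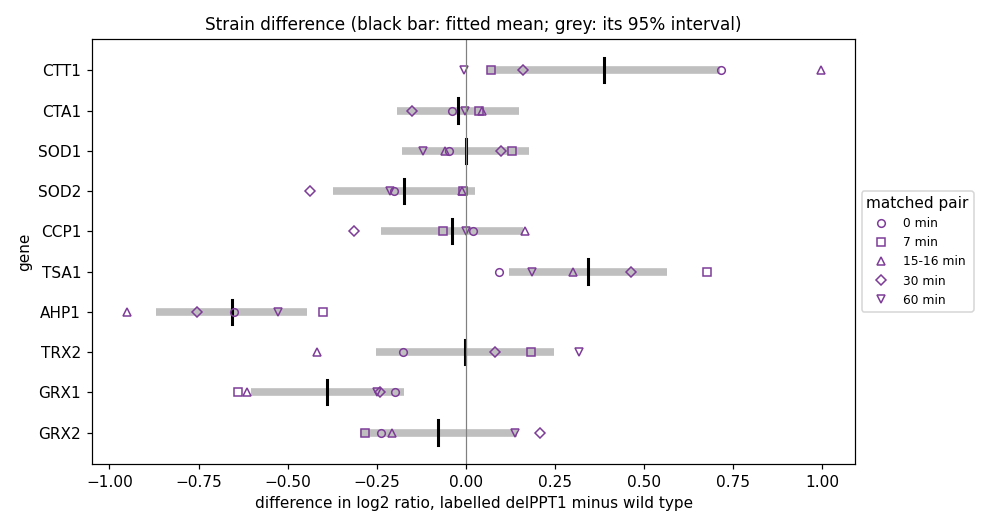
Difference in log2 ratio, labelled delPPT1 minus wild type (x axis), for each gene (y axis). Open symbols are the 5 pairs of arrays matched by time, black bars the fitted difference and grey bars its 95% interval. All 5 AHP1 pairs lie between -0.95 and -0.40.

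No gene of the 10 had a response that differed between the strains in the interaction test, which called 0% of all genes at an adjusted p under 0.05. At an unadjusted p under 0.05, 0 of the 10 and 4.71% of all genes passed. The estimates ran from -0.41 for CTT1 (95% interval -1.24 to 0.42) to 0.31 for TSA1 (95% interval -0.23 to 0.86). On simulated arrays the test recovered 0% of 2-fold and 96.5% of 4-fold interaction differences, and 7.21% of its calls at 4-fold were false. The simulation gave each gene the same spread on every array and a constant difference at all 4 later times. The 0 min arrays here had a wider spread, so the recovery in these data may differ. CTT1 changed from 0 to 60 min by -1.50 on the arrays labelled delPPT1 and by -0.77 in the wild type, and TSA1 from 0 to 7 min by -0.25 and by -0.84, each from 1 array a strain and time.

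Of the 45 pairs among the 10 genes, 31 had a positive Pearson correlation over the 10 arrays, with a median of 0.23. The highest were SOD2 with GRX1 (r = 0.75), CTT1 with SOD1 (r = 0.73) and SOD1 with AHP1 (r = 0.69), and the lowest was CTA1 with GRX1. All genes share the reference and the 0 min arrays, and these values are descriptions. The share of positive pairs over all genes was not counted. Among 4900 other genes measured on every array, the profile of GRX1 was most like those of POR1, the mitochondrial porin gene (r = 0.98), YMR315W (r = 0.97) and TIM13, of mitochondrial protein import (r = 0.96). The genes most like CTT1 were FCY2, a purine and cytosine permease gene (r = 0.95), and its relatives FCY21 (r = 0.94) and FCY22 (r = 0.94), which, as close relatives, can share signal. For SOD2 they were ASK10 (r = 0.95), YOR062C (r = 0.92) and YHR140W (r = 0.91), for SOD1 LIP1, a ceramide synthase subunit gene (r = 0.96), YLR257W (r = 0.95) and BER1 (r = 0.92), and for AHP1 DLD3 (r = 0.92), ISA2, of iron-sulfur cluster assembly (r = 0.92), and MRM1 (r = 0.92).

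A companion list of 33 other genes of peroxide and thiol metabolism was set beside these, of which 31 were in the table. The F test over time passed 4 of the 31, beside 8.98% of all genes. Without the 0 min array labelled delPPT1 it passed 1, and without the wild type 0 min array 2. At 7, 15-16, 30 and 60 min 0, 4, 4 and 4 of the 31 fell, beside 2.58%, 5.62%, 7.8% and 8.38% of all genes, and 0 rose at any time. For the F test and at 30 and 60 min the counts are not far above these shares, and nothing particular to the list is read from them. Their median change was -0.12, -0.18, -0.18 and -0.15 at the 4 times. At 15-16 min the list's 4 falls were in the peroxiredoxins TSA2 and PRX1, in GPX2, a glutathione peroxidase gene, and in the glutaredoxin GRX8. At 30 min they were in TSA2, PRX1, GRX8 and GTT1, and at 60 min in TSA2, PRX1, GTT1 and HYR1.

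TSA2, the paralogue of TSA1, had the largest change. Its log2 ratio was 2.15, 1.37, 0.75, -0.21 and -0.21 from 0 to 60 min on the arrays labelled delPPT1, against 1.68, 1.02, 0.12, 0.23 and 0.28 in the wild type. It fell at 15-16, 30 and 60 min, with changes of -1.48, -1.90 and -1.88 (SE 0.27 each; adjusted p = 0.00953, 0.00175 and 0.00165), which at 30 min was 3.74-fold. The falls at 30 and 60 min passed in all 16 alternatives. That at 15-16 min missed the threshold with quantile normalization (-0.84, adjusted p = 0.137) and with median and MAD scaling. It also missed the threshold without the 0 min array labelled delPPT1 or the wild type 16 min array. TRX1, the paralogue of TRX2, passed neither the F test (adjusted p = 0.449) nor the strain comparison (0.27 ± 0.09, adjusted p = 0.123).

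PRX1, the mitochondrial peroxiredoxin, fell at 15-16, 30 and 60 min, with changes of -1.03, -0.93 and -0.60 (SE 0.15 each; adjusted p = 0.00247, 0.00313 and 0.0278), and the falls at 15-16 and 30 min passed in all 16 alternatives. GTT1, a glutathione transferase gene, fell by 0.63 ± 0.13 at 30 min (adjusted p = 0.013) and fell by 1.07 ± 0.13 at 60 min (adjusted p = 0.000631), where it passed in all 16 alternatives. At 30 min GTT1 stood at only -0.06 with quantile normalization (adjusted p = 0.836), and at 60 min PRX1 (-0.32, adjusted p = 0.255) and HYR1 (-0.32, adjusted p = 0.228) also lost their calls with it. HYR1, a thiol peroxidase that senses peroxide for Yap1, fell by 0.75 ± 0.15 at 60 min (adjusted p = 0.0101). GPX2 fell by 0.57 ± 0.12 at 15-16 min (adjusted p = 0.0224), and GRX8 had changes of -0.52 at 15-16 min and -0.56 at 30 min (SE 0.13 each; adjusted p = 0.0402 and 0.0214). Leaving out 1 array at a time ended 6 calls of this group, PRX1 at 15-16 and 30 min and GTT1 at 60 min being the ones that held. HYR1 at 60 min lost its call without the 0 min array labelled delPPT1 or the wild type 60 min array, and GTT1 at 30 min without either 0 min array or the 30 min array labelled delPPT1 (adjusted p from 0.0540 to 0.107). PRX1 at 60 min, GPX2 at 15-16 min and GRX8 at 30 min each lost it without either 0 min array or either array of the time itself, and GRX8 at 15-16 min without any 1 of the 10.

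Between the strains, 1 of the 31 companion genes was lower on the arrays labelled delPPT1 and 0 were higher, about the share of all genes (2.06% lower and 1.73% higher). It was ZWF1, the glucose-6-phosphate dehydrogenase gene whose enzyme supplies NADPH for these reductions. ZWF1 was at 0.46, 0.18, 0.48, 0.55 and 0.44 at 0, 7, 15, 30 and 60 min on the arrays labelled delPPT1, against 1.09, 0.97, 0.72, 0.93 and 0.95 at 0, 7, 16, 30 and 60 min in the wild type. The strains did not overlap, as for 2.0% of the genes measured on every array with all values lower under the delPPT1 label. The fitted difference was -0.51 ± 0.10 (adjusted p = 0.0261), lower in 5 of 5 pairs. It missed the threshold without any 1 of the arrays of 0, 7, 30 or 60 min (adjusted p from 0.0614 to 0.108) and with median and MAD scaling (adjusted p = 0.0563).

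**Figure D5:**
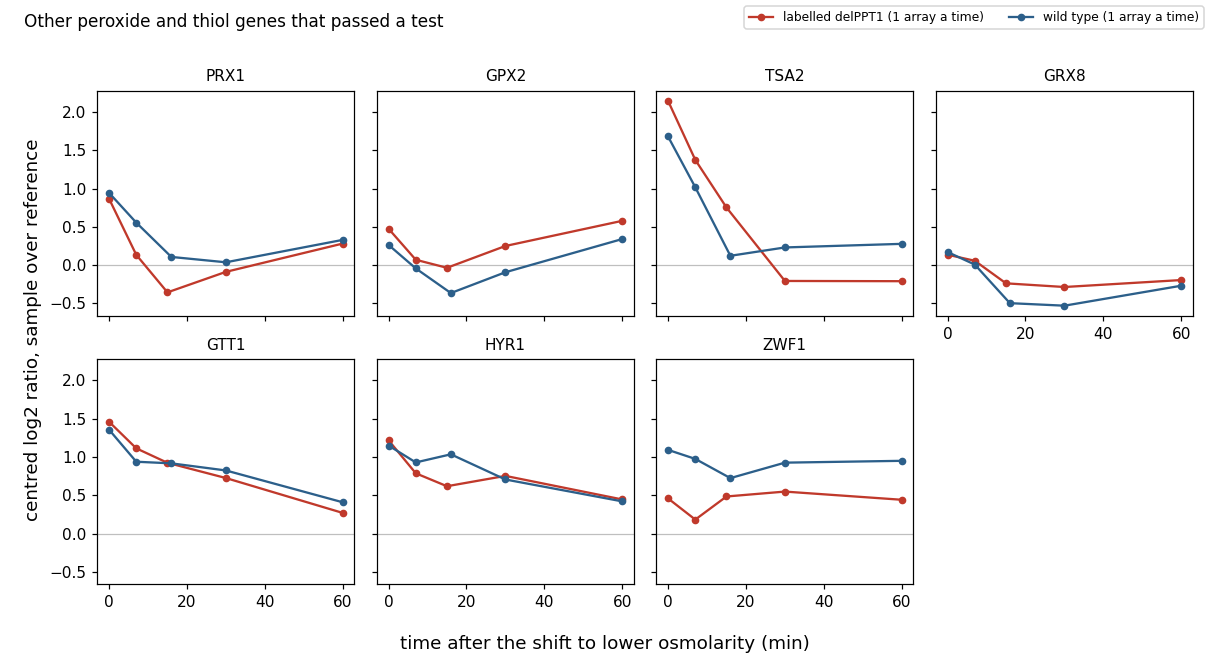
Centred log2 ratio (y axis) against time after the shift in minutes (x axis) for the 7 companion genes that passed a test, on arrays labelled delPPT1 (red) and wild type arrays (blue). Each point is 1 array. TSA2 lies highest at 0 min in both strains, at 2.15 and 1.68, and ZWF1 lies lower on every array labelled delPPT1.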

How the data were processed

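The authors deposited a single table with a log ratio for each gene on each 2-colour array, taken here as log2. Not given in the sources used here: log base, direction, dyes, platform, background correction, normalization and genome build. A natural log would enlarge every value by 1 factor and change no limma call. Of 5822 systematic names, 5358 were matched to RefSeq (assembly R64), and 1.81% of values were missing. No sequences were used here.

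Values were first centred array by array (median 0). Additive models were then fitted with limma 3.58.1 (R 4.3.3), with time and strain as terms, to all genes and all 10 arrays (4 residual and 5.8 prior degrees of freedom), with the 16 min and 15 min arrays as 1 time. A second fit added strain by after-shift (3 residual degrees of freedom). P-values were Benjamini-Hochberg adjusted over all genes (threshold 0.05). The fits were tested on simulated arrays. Of the companion list, genes past a test and the paralogues TRX1 and TSA2 are named, and for each member past the F test its 3 most correlated genes. Members and lists were chosen with earlier results of these data known. Alternatives were no centring, quantile normalization, median and MAD scaling, complete genes only, a trended prior, fits without strain or time, and leaving out each array. Leaving out either array of a time gives the same strain fit. For a later time it also gives the same change from 0 min at the other times. These alternatives therefore overlap.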

Additional observations from a re-analysis of the deposited data

How the results depend on the processing

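Of the 10 genes, 5 changed over time, and 1, 4, 5 and 4 changed at 7, 15-16, 30 and 60 min. With quantile normalization these counts were 1, 0, 0, 2 and 1, with median and MAD scaling 2, 0, 1, 3 and 3, and without the strain term 0, 0, 2, 3 and 3. Leaving out each array in turn gave 0 to 4 over time, 0 to 1 at 7 min, 0 to 4 at 15-16 min, 1 to 5 at 30 min and 2 to 4 at 60 min. The lowest counts came without the 0 min array labelled delPPT1, and at 7, 30 and 60 min also without an array of that time or, at 7 min, the wild type 0 min array. The cause was not tested, except that a fit without an array has fewer arrays. No centring, complete genes and the trended prior left the counts within 1 of these. The count between strains, 1, was 2 with complete genes and with the trended prior and 0 without the time term, and 1 without each array. Over all genes the strain count was 221, with 351 for complete genes, 234 with the trended prior and 0 without the time term. Without each array it was below 221. Counts of the 10 genes between consecutive times and in the interaction were 0 under each alternative run. The interaction could not be fitted without a 0 min array. Over the single results of the 10 genes and the 7 companion genes that passed a test, 1595 kept direction and side of the threshold, 170 lost a call, 11 gained one and 77 changed sign with neither value passing, and 0 called values changed sign. For the F test only the side of the threshold was compared. No paired analysis was possible because each strain and time had 1 array, apart from the matching by time that the strain comparison already holds.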
